A study of Mus musculus with 6 samples.

Results

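In all, 10 genes for dual-specificity MAP kinase phosphatases were followed in hearts of young and old mice: Dusp1, Dusp2, Dusp4, Dusp5, Dusp6, Dusp7, Dusp8, Dusp10, Dusp14 and Dusp16. They were taken by symbol, and all 10 were found among the 18005 gene symbols of the deposited tables. RNA was sequenced from the hearts of 3 young and 3 old mice, called young 1 to 3 and old 1 to 3 after the numbers in their titles, and every animal of both groups was labelled wild type (WT) and untreated. The labels give no age in months, strain or sex, and beyond the numbered titles nothing states how the animals were housed or sampled, so p-values measure the spread between these 6 samples. The series title places the comparison of young with aged hearts in age-related cardiac hypertrophy.

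MAP kinases such as ERK, JNK and p38 are switched on when an upstream kinase phosphorylates a threonine and a tyrosine in their activation loop. Dual-specificity phosphatases remove both phosphates and so switch the kinase off. Several of their genes are themselves induced by MAP kinase signalling, which makes them a negative feedback. The family is usually divided into inducible nuclear enzymes (DUSP1, DUSP2, DUSP4 and DUSP5), cytosolic enzymes that prefer ERK (DUSP6 and DUSP7) and enzymes that prefer JNK and p38 (DUSP8, DUSP10 and DUSP16). DUSP14 is a small atypical member that lacks the amino-terminal region with which the others dock on their kinases. In heart muscle, ERK is best known for its part in growth of the cell, and JNK and p38 for stress responses.

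Transcripts of Dusp16 and Dusp8 were higher in old hearts, those of Dusp4 were lower, and the family as a whole did not move in 1 direction. Levels are given in CPM, the counts of a gene scaled to a common library total with TMM factors (a correction for differences in library makeup), and fold changes as log2 of old over young with a standard error (SE). A gene was called when its p-value from edgeR's quasi-likelihood test, adjusted by the Benjamini-Hochberg method over all 12893 genes tested, was under 0.05. Dusp14 had too few counts to be tested. Of the other 9 members, 2 rose, 1 fell and 6 did not pass, against 22% of all tested genes called, 11.4% higher and 10.6% lower. The young and old libraries did not overlap for 3 of the 9 tested members, against 39.9% of all tested genes, 19.6% with the old hearts above and 20.3% with them below. With 9 genes, neither count is read as setting the family apart from the background. Over the 9 tested members the median log2 fold change stood at 0.52, and over all tested genes at -0.01. It was 0.24 for the members in the fit without old 3. In whole heart tissue, a change in the number of cells of a type and a change in RNA per cell cannot be told apart.

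**Figure D1:**
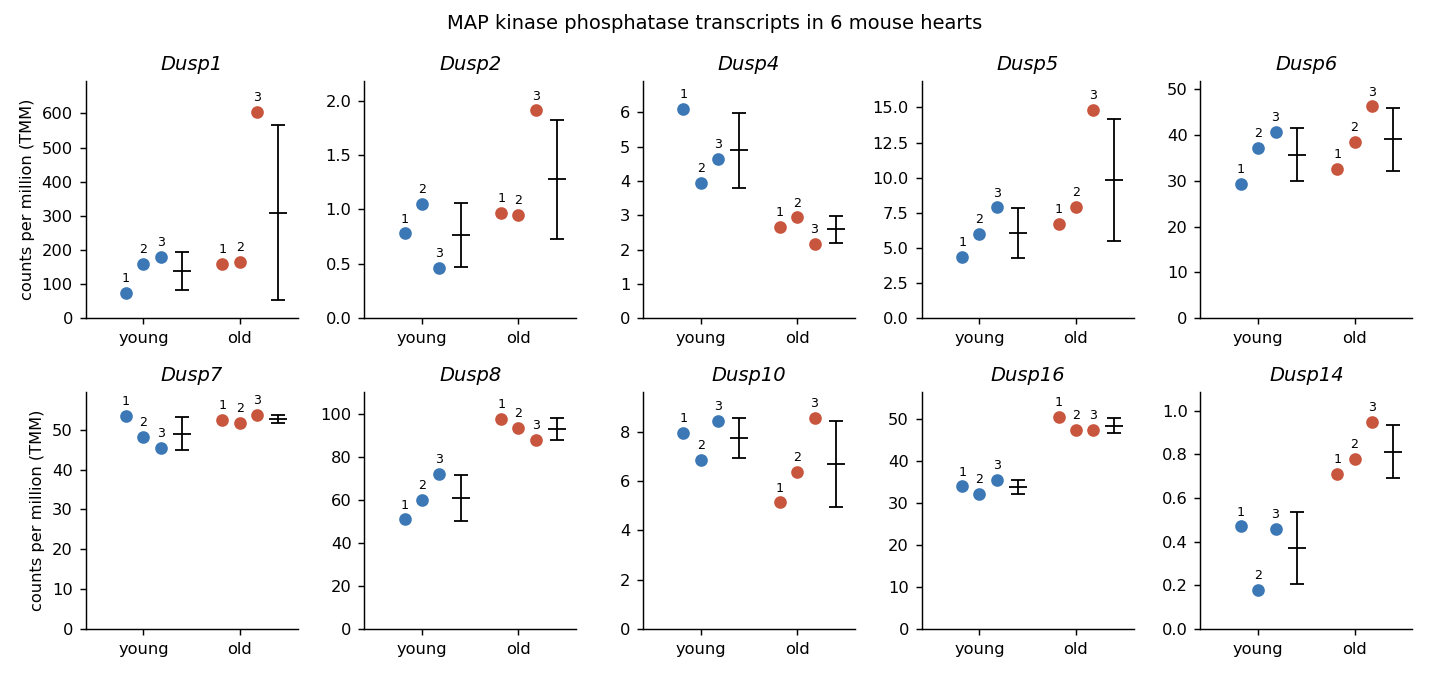
Level of each phosphatase transcript (vertical axis, CPM after TMM scaling, starting at 0) in the 3 young (blue) and 3 old (red) hearts, with the mouse number above each point and the mean and SD of the group as a bar beside it. For Dusp8, Dusp16 and Dusp14 every old heart lies above every young heart, for Dusp4 every old heart lies below, and for Dusp1 the old heart numbered 3 stands at 604 CPM against 158 and 165 in the other old hearts.

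The promoters of 4 genes are shown: those of Dusp16 and Dusp8, which rose, and those of Dusp1 and Dusp5, which were not called but shared a high level in old 3. Dusp1 and Dusp5 were chosen for display after their values were seen, and Dusp4 has no entry in the promoter table. Each is the stretch upstream of the transcription start in the RefSeq table of the GRCm38.p6 build, an older build than the one named for the data, read 5′ to 3′ on the strand of the gene. Bases lying in an annotated exon of the gene itself were left out, 47 of them for Dusp1 and 36 for Dusp5. Exons of other genes were kept, and the whole Dusp5 stretch lies in an annotated exon of the antisense gene AC137853.2. Dusp16 lies at chr6:134792629-134792878, Dusp8 at chr7:142095285-142095534 and Dusp1 at chr17:26508520-26508722, all on the minus strand, and Dusp5 at chr19:53528895-53529108 on the plus strand. Capitals mark every match, on either strand, to the cAMP response element (TGACGTCA) or its core (TGACG), the E-box (CACGTG), the CArG box bound by serum response factor, and a heat shock element (GAANNTTC).
Dusp16: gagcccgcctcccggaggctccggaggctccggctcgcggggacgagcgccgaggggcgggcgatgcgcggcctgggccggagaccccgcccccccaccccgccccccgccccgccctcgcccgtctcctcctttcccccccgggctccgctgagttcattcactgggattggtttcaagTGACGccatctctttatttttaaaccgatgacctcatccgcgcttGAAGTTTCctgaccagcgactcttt
Dusp8: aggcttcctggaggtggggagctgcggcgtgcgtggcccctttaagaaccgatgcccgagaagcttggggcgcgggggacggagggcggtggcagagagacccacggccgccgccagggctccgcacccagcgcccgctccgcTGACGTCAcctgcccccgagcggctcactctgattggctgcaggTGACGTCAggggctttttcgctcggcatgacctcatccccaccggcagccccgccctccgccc
Dusp1: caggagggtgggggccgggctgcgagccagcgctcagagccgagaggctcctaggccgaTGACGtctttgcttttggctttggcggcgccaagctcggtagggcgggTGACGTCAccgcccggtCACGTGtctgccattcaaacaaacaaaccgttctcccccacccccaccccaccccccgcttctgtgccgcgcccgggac
Dusp5: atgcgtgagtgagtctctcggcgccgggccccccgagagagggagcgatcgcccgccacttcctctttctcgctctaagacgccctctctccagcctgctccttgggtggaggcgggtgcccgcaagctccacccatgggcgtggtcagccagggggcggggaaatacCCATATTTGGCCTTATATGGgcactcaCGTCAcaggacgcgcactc
The full cAMP response element, which contains the core on both strands, occurred at 2 places in the Dusp8 window and at 1 in that of Dusp1. It was present in 1.55% of the 32851 RefSeq promoter windows of 250 bases. The core alone was present in 17.8% of them, the E-box in 6.02%, the CArG box in 1.47% and the heat shock element in 6.69%. Dusp5 had 2 CArG boxes next to each other, at bases -82 to -73 and -72 to -63 from the start. Motifs were searched in the full 250 bases of each window, annotated exon bases included. Of the 9 members with an entry, 4 held the core (Dusp16, Dusp8, Dusp1 and Dusp5), and 0 held an AP-1 site (TGANTCA, in 6.75% of windows), the TATA box letters TATAAA (12.4%) or a full glucocorticoid response element (0.0609%). The windows of these 4 genes were 64 to 71.6% G or C bases, against a median of 52.4% over all windows. The shares over all windows are not matched for this, so the counts are not read as an excess of a motif. A match is a run of letters in the window and was not tested as a binding site.

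Among the phosphatases that prefer JNK and p38, Dusp16 and Dusp8 rose and Dusp10 did not pass. Dusp16 encodes a JNK phosphatase that moves between nucleus and cytoplasm. Its levels were 33.9, 32.1 and 35.4 CPM in young 1 to 3 and 50.4, 47.4 and 47.4 CPM in old 1 to 3. The groups were well apart, with little spread inside either. The log2 fold change was 0.52 ± 0.08 (SE, edgeR adjusted p = 0.000967), from 33.8 ± 1.66 CPM in young to 48.4 ± 1.73 in old hearts (SD, n = 3 each). It was called whichever library was left out, with log2 fold changes between 0.48 and 0.56.

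Dusp8, whose product acts on JNK and p38 and is abundant in heart and brain, had 50.9, 59.8 and 72.1 CPM in young 1 to 3 and 97.6, 93.4 and 87.7 CPM in old 1 to 3. Every old heart lay above every young heart, though the young hearts were more spread out than those for Dusp16. Its log2 fold change was 0.61 ± 0.11 (SE, edgeR adjusted p = 0.00343). This call too was made whichever library was left out, with log2 fold changes between 0.49 and 0.75. Neither Dusp8 nor Dusp16 was highest in old 3, and without that heart their log2 fold changes were 0.66 and 0.54.

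Dusp10, which also acts on p38 and JNK, had 7.96, 6.85 and 8.44 CPM in young and 5.14, 6.39 and 8.58 CPM in old hearts. Old 1 and old 2 were the lowest of the 6 hearts, but old 3 was the highest, so that the groups overlapped. Its difference between the groups, -0.21 ± 0.19 (SE) on the log2 scale, did not pass (edgeR adjusted p = 0.449). It was -0.42 without old 3 and -0.05 without old 1, and in neither case was the gene called.

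The inducible nuclear phosphatases differed among themselves, and Dusp4 was the member of this class that passed the test. Dusp4, which encodes a nuclear phosphatase of ERK, JNK and p38, had 6.09, 3.95 and 4.64 CPM in young 1 to 3 and 2.66, 2.94 and 2.17 CPM in old 1 to 3. All old hearts were below all young hearts, and old 3 was the lowest. The log2 fold change was -0.92 ± 0.23 (SE, edgeR adjusted p = 0.0136), from 4.9 ± 1.09 to 2.59 ± 0.39 CPM (SD, n = 3 each). These levels rest on 45 to 78 counts per young and 25 to 34 counts per old library. Without young 1, the highest of them, the gene was not called (log2 fold change -0.73, edgeR adjusted p = 0.0764).

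Dusp1 encodes MKP-1, a nuclear phosphatase of p38, JNK and ERK whose gene is induced within minutes by stress, growth factors and glucocorticoids. It had 75.0, 159 and 180.5 CPM in young 1 to 3 and 158, 165 and 604 CPM in old 1 to 3. Old 1 and old 2 lay within the range of the young hearts, and old 3 stood far above all others. Its log2 fold change, 1.16 ± 0.45 (SE), was the largest among the 9 tested members and did not pass (edgeR adjusted p = 0.0879, unadjusted p = 0.0253). It was 0.24 ± 0.25 without old 3 (adjusted p = 0.526). Without old 1 it was 1.48 (adjusted p = 0.0421) and without old 2 it was 1.47 (adjusted p = 0.0345), so that the gene was called in those fits.

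Dusp5 encodes a nuclear phosphatase specific for ERK. Its levels were 4.37, 5.97 and 7.89 CPM in young and 6.73, 7.95 and 14.8 CPM in old hearts. Young 1 was lowest and old 3 highest, as for Dusp1, and the groups overlapped. At 0.69 ± 0.29 (SE) on the log2 scale the difference did not pass (edgeR adjusted p = 0.105, unadjusted p = 0.033). It was 0.28 without old 3 and 0.91 without old 1, where it was called (adjusted p = 0.0474). In the GENCODE M21 annotation Dusp5 shares exon sequence with an antisense gene, AC137853.2, and since the strand setting of the counting is not given in the sources used here, reads from both cannot be told apart. The other 9 members overlap no annotated exon of another gene.

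Dusp2, known mainly from activated immune cells, was near the limit of detection at 6 to 12 counts per young and 11 to 22 counts per old library. It had 0.78, 1.05 and 0.46 CPM in young and 0.97, 0.95 and 1.91 CPM in old hearts. Here as well old 3 was highest and the other old hearts lay within the young range. The fitted difference was 0.75 ± 0.42 on the log2 scale (SE, edgeR adjusted p = 0.223), with 0.35 without old 3 and 0.49 without young 3. The 8 lymphocyte markers summed to 6.4, 10.5 and 7.66 CPM in young and 10.2, 7.43 and 13.9 CPM in old hearts, also highest in old 3. Of these markers 6 were tested, 2 rose (Cd3e and Cd3g; 1 without old 3) and 0 fell, and Cd8a was at 0 in at least 1 library. Their part in the values of Dusp2 was not tested.

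The cytosolic ERK phosphatases showed little difference with age. Dusp6, a feedback gene of ERK signalling, had 29.4, 37.2 and 40.7 CPM in young and 32.6, 38.5 and 46.3 CPM in old hearts. The groups overlapped, with young 1 the lowest heart and old 3 the highest. Old over young gave 0.13 ± 0.14 on the log2 scale (SE, edgeR adjusted p = 0.532). Dusp7, its close relative, had 53.5, 48.2 and 45.4 CPM in young and 52.6, 51.9 and 53.7 CPM in old hearts, for a fold of 0.10 ± 0.08 on the log2 scale (SE, edgeR adjusted p = 0.405). Its 3 old hearts lay close together inside or just above the young range.

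Dusp14 had 6, 2 and 6 counts in young and 8, 9 and 11 counts in old libraries, or 0.47, 0.18 and 0.46 against 0.71, 0.78 and 0.95 CPM. The old values were all higher, at a depth where 1 count is worth 0.0773 to 0.0885 CPM. With no filter on low counts its log2 fold change was 1.09 ± 0.54 (SE) and did not pass (edgeR adjusted p = 0.186).

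**Figure D2:**
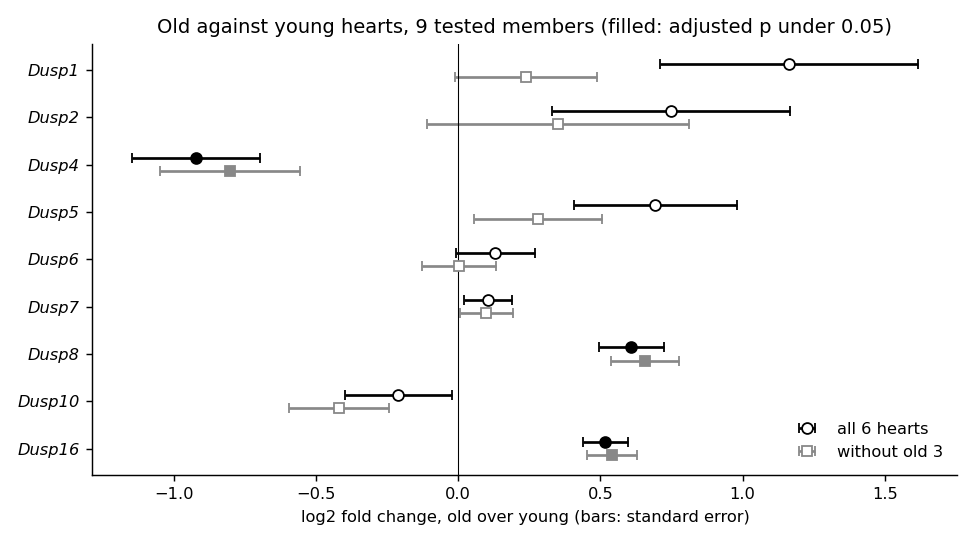
Log2 fold change of old over young (horizontal axis) with its standard error for the 9 tested phosphatase genes, from all 6 hearts (circles) and without old 3 (squares), filled where the adjusted p was under 0.05. Dusp4, Dusp8 and Dusp16 are filled in both fits, whereas Dusp1 moves from 1.16 to 0.24 and Dusp5 from 0.69 to 0.28 when old 3 is left out.

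The members were also compared with each other on the deposited FPKM values, which divide counts by gene length and by the library total. Dusp1 was the most abundant in every heart, at 40.3, 82.6 and 96.0 FPKM in young and 79.5, 81.2 and 307 FPKM in old hearts. In young hearts it was followed by Dusp7 (15.7 ± 1.46 FPKM, SD, n = 3), Dusp6 (11.4 ± 1.79), Dusp8 (11.4 ± 1.98) and Dusp16 (6.44 ± 0.401), and Dusp6 and Dusp8 did not differ there beyond their spread. Then came Dusp5 (3.44 ± 0.996), Dusp4 (2.08 ± 0.494), Dusp10 (1.04 ± 0.124), Dusp2 (0.485 ± 0.181) and Dusp14 (0.118 ± 0.0548). In old hearts Dusp8 (16.4 ± 0.792 FPKM) followed Dusp1, beside Dusp7 (16.0 ± 0.554), from which it did not differ beyond the spread. Dusp4 (1.03 ± 0.14 FPKM) and Dusp10 (0.854 ± 0.232) did not differ beyond their spread in old hearts. Apart from Dusp8 passing Dusp7 and Dusp6, the order was the same in both groups.

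Summed by class, the members that prefer JNK and p38 gave 17.3, 17.9 and 21.5 FPKM in young and 27.1, 25.4 and 25.6 FPKM in old hearts. Each old heart exceeded each young heart, and the ratio of the means was 1.38, or 1.39 without old 3. The cytosolic ERK phosphatases together gave 26.9, 26.8 and 27.7 FPKM in young and 25.8, 26.8 and 30.7 in old hearts, a ratio of 1.02. The inducible nuclear class was dominated by Dusp1 and gave 45.9 to 103 FPKM in young hearts, 84.7 and 87.1 in old 1 and old 2, and 317 in old 3. Dusp1 alone made up 44.6, 62.1 and 63.1% of the FPKM of all members in young 1 to 3, 57.7 and 58.2% in old 1 and old 2, and 82.2% in old 3. These sums hold genes already described one by one and were given no test.

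**Figure D3:**
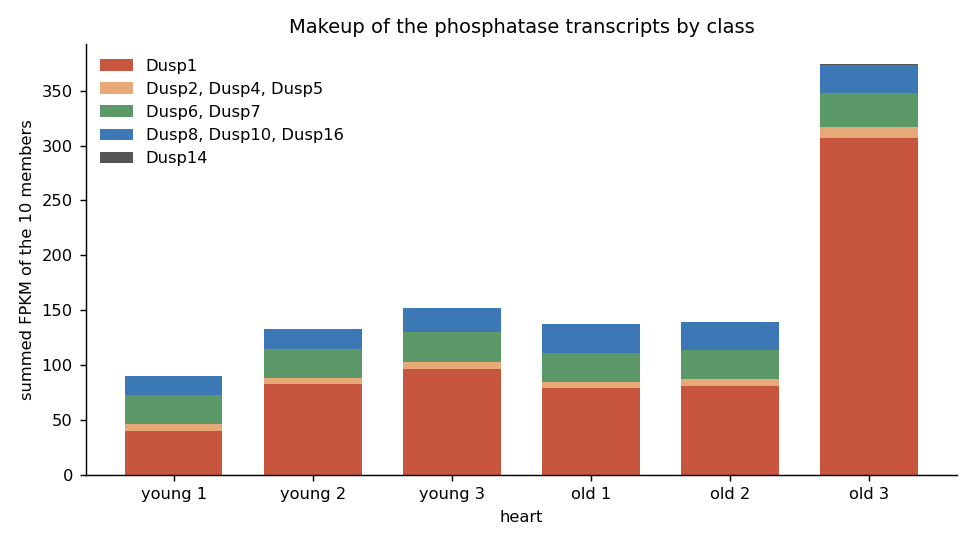
Summed FPKM of the 10 phosphatase genes (vertical axis, starting at 0) in each heart (horizontal axis), stacked by class. Dusp1 takes the largest part of every bar and reaches 307 FPKM in old 3, the blue part (Dusp8, Dusp10 and Dusp16) is larger in each old than in each young heart, and Dusp14, under 0.3 FPKM, is too small to be seen.

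Old 3 was the heart with the highest level for 7 of the 10 members (Dusp1, Dusp2, Dusp5, Dusp6, Dusp7, Dusp10 and Dusp14). Without Dusp14, which was not tested, this held for 6 of the 9 tested members, against 17.1% of all tested genes that were highest in old 3. For Dusp7 and Dusp10 the lead over the next heart was small. Dusp4 was lowest there. Young 1 was the lowest heart for 4 members, Dusp1, Dusp5, Dusp6 and Dusp8, against 14% of tested genes that were lowest in it. Across fits, 2 members were called without young 1 (12% of genes called), 3 without young 2 (18.7%), 3 without young 3 (11.9%), 5 without old 1 (14.7%), 4 without old 2 (19%) and 3 without old 3 (23.3%). At an adjusted p under 0.01 the count was 2 (9.73%), with no filter on low counts it was 4 (16.8%) and with the mouse number as a block it was 5 (21.2%). It was 3 with RLE factors (22.1%), upper-quartile factors (23.3%), library size alone (24.5%), a filter of 1 CPM (22.3%), DESeq2 (18.8%), limma-voom (22%) and on FPKM values with pseudocounts of 1 (23.6%, or 12.5% with no filter) and 0.1 (23.3%). The total counts of old 3 (11688226) lay inside the range of the 6 libraries, 11295280 to 12514005.

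Dusp1 is commonly counted among the immediate early genes, and 17 others of that kind were set beside it (Fos, Fosb, Fosl2, Junb, Egr1, Egr2, Egr3, Ier2, Ier5, Atf3, Nr4a1, Nr4a2, Nr4a3, Btg2, Zfp36, Maff and Arc). All 17 rose, with log2 fold changes between 1.56 and 4.80, against 11.4% of all tested genes that were called higher. All 17 also rose in the fit without old 3. In old 1 and old 2 each of them stood above every young heart, which Dusp1 did not. Relative to the mean of the young hearts on the log2 CPM scale, their median was 2.34, 2.25 and 3.55 in old 1 to 3, and Dusp1 was at 0.29, 0.36 and 2.23. In young 1 both were low, at -0.45 for the median and -0.78 for Dusp1. The list medians used log2 CPM with a prior count of 2, which pulls in low counts, and the Dusp1 values used none. Of the 17 genes 13 were highest in old 3 and 14 lowest in young 1. Without young 3, and with DESeq2, 16 of the 17 were called. Of 14 genes known to respond to glucocorticoids, 11 rose and 0 fell, or 12 and 1 without old 3. The medians of this list were 1.04, 1.01 and 0.92 in old 1 to 3. Among the old hearts, its 3 genes of smallest p were each highest in old 1. In old 1 to 3 Cebpb had 105, 95.6 and 91.0 CPM, Per1 147, 129 and 121 CPM, and Mt1 234, 216 and 215 CPM. Mt2 and Zbtb16, not among these 3, are named as examples of a wider spread. Mt2 had 26.9, 24.5 and 41.4 CPM in old 1 to 3, and Zbtb16 had 110, 137 and 21.8 CPM. A part of glucocorticoids in the level of Dusp1 was not tested. Both lists were chosen with earlier results of these data known, so their counts are descriptions.

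**Figure D4:**
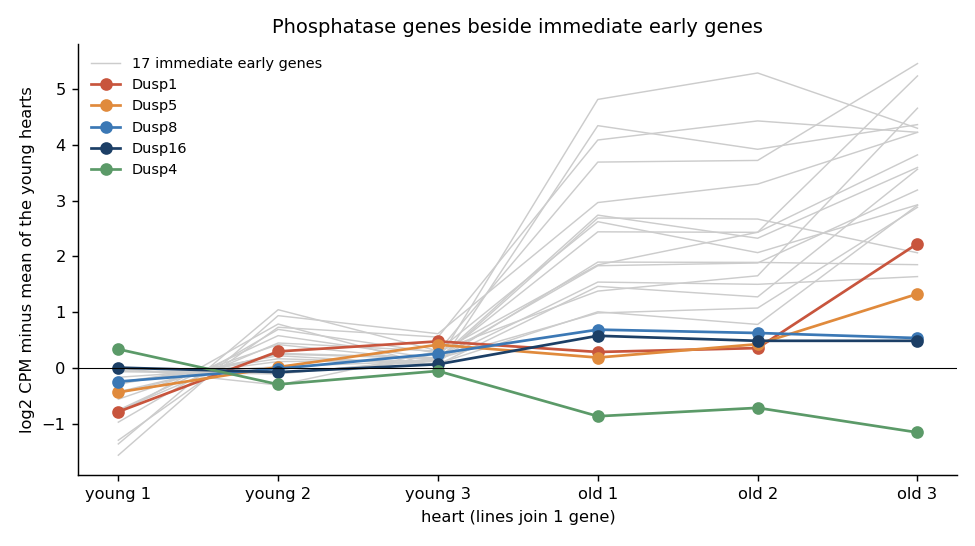
Level of each gene in each heart as log2 CPM minus the mean of the 3 young hearts (vertical axis), for 17 immediate early genes (grey) and 5 phosphatase genes (colours); lines join the values of a gene and imply no order of the hearts. The grey lines are raised in all 3 old hearts, whereas Dusp1 is at 0.29 and 0.36 in old 1 and old 2 and at 2.23 in old 3.

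Of 127 other genes of the pathway in 10 lists, 114 were tested. Of these, 17 rose and 14 fell, and the median over the 114 was -0.02 on the log2 scale. Together 27.2% of them were called, against 22% of all tested genes. Transcripts of the kinases that the phosphatases act on were mostly not called. Of 12 tested MAP kinases 1 rose and 0 fell, and it was Mapk10, which encodes JNK3, the JNK of brain and heart, at 0.60 ± 0.12 (SE). Mapk10 had 10.7, 12.7 and 11.2 CPM in young and 17.7, 19.4 and 15.3 CPM in old hearts. Of 7 MAP kinase kinases 0 rose and 1 fell, the JNK kinase Map2k7 (-0.32 ± 0.08), a call lost without young 3, while 1 of them rose without young 2, without old 3 or with DESeq2. Of 21 kinases of the tier above, 2 rose and 1 fell. Map3k6, a stress-responsive relative of ASK1, rose from 10.4, 12.7 and 10.8 to 41.5, 43.4 and 25.3 CPM (log2 fold change 1.70 ± 0.18), Map3k15 was at 1.31 ± 0.31 and Map3k1 at -0.63 ± 0.16. The call of Map3k15 was lost without young 3, and that of Map3k1 without young 1, young 3, old 1 or old 2.

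Further down the pathway, 1 of 10 kinases activated by MAP kinases rose (Rps6ka3, 0.55 ± 0.17 SE) and 1 fell (Rps6ka2, -0.27 ± 0.09). Neither call was stable. That of Rps6ka3 was lost without any library but old 3, and its value was 0.33 without old 1. That of Rps6ka2 was lost without any 1 of the libraries. Of 8 scaffold genes, 0 rose and 1 fell, Arrb1, a beta-arrestin gene (-0.55 ± 0.09). Of 14 transcription factors that MAP kinases phosphorylate, 3 rose and 4 fell, with Jund at 1.02 ± 0.09, Srf, serum response factor, at 0.73 ± 0.11 and Elk3 at -0.79 ± 0.14. Leaving out young 1, young 3 or old 1 left 1 of the 4 that fell.

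Other negative regulators of the pathway went both ways. Of 12 feedback inhibitors, 2 rose and 2 fell, or 1 without young 3. Errfi1, an inhibitor of EGF receptors, was at 1.13 ± 0.18 (SE), Spry4, a Sprouty inhibitor of ERK signalling, at 0.92 ± 0.23 and Spred1 at -0.54 ± 0.10. Spry4 was highest in old 3, at 57.7 CPM against 30.6 and 32.2 in the other old hearts, and its log2 fold change was 0.58 without old 3 and its call was lost without young 1 (adjusted p = 0.0562) and with DESeq2 (adjusted p = 0.0507). Of 14 other dual-specificity phosphatases tested, 2 rose and 2 fell, or 1 without young 3. Dusp18 went from 27.6, 33.5 and 35.4 to 65.8, 71.0 and 60.9 CPM (log2 fold change 1.04 ± 0.10), Dusp3, an ERK and JNK phosphatase also called VHR, was at 0.37 ± 0.08, and Ssh2, a slingshot phosphatase of cofilin, was at -0.82 ± 0.09. Of 7 further phosphatases that act on MAP kinases, 2 rose: Ppp2ca, a catalytic subunit of protein phosphatase 2A (0.49 ± 0.09), and the tyrosine phosphatase gene Ptprr (0.83 ± 0.20), whose call was lost without young 1, young 3 or old 1.

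Genes often read as output of ERK did not share a direction. Of 11 tested, 5 rose and 2 fell. The number that rose was 4 without young 1, young 2 or young 3 and with DESeq2, and 6 without old 3. Spry4, also counted among the feedback inhibitors, is 1 of the 5. Ier3 was at 1.38 ± 0.11 (SE) and Fosl1, which had 1 or 2 counts in each young library, at 3.96 ± 0.52. Etv5, an ETS factor downstream of FGF and ERK signalling, fell from 44.3, 40.2 and 45.7 CPM to 12.5, 15.3 and 11.3 CPM, a difference of -1.74 ± 0.11 on the log2 scale. Leaving out any library but old 2 left 1 of the 2 that fell.

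Genes whose pattern over the 6 libraries was most like that of the called members were found by Pearson's r of log2 CPM, a description in which the same 6 libraries and the age difference are shared. For Dusp16 they were Cd151 (r = 0.9996), Plekho2 (0.997), Zfp207 (0.997), Sf3b1 (0.996) and Rnf208 (0.996), and 361 of 12884 genes had r above 0.95. For Dusp8 they were Tmem69 (0.992), Otub1 (0.991), Best3 (0.990), Slc41a2 (0.987) and Lrp2bp (0.985), with 88 genes above 0.95. For Dusp4 they were Orc5 (0.997), Adipor2 (0.995), Des (0.993), Bicdl1 (0.992) and Imp4 (0.992), with 124 genes above 0.95. The 3 sets of 5 share no gene, and nothing is read from this. The Dusp4 set was bound to differ, since Dusp4 fell and Dusp16 and Dusp8 rose. For Dusp16 and Dusp8, 5 genes are a short cut from 361 and 88 above 0.95. A high r does not mean a change of like size. In the Dusp8 set Tmem69 (log2 fold change 0.18) and Otub1 (0.23) were not called. In the Dusp4 set Orc5 (-0.20), Adipor2 (-0.14) and Imp4 (-0.20) were not called. The other genes named here were called, but some of these calls were lost in other fits. Rnf208, at 0.547, 0.527 and 0.619 CPM in young 1 to 3, lost its call with DESeq2 and without young 1, young 3 or old 1. Bicdl1 lost it without young 1, young 3 or old 1, Des without young 1 or old 1, and Slc41a2 without young 1. Otub1 gained a call without old 3 and Imp4 with library size alone.

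The tissue label was checked against marker genes. The 8 heart muscle markers (such as Tnnt2, Tnni3 and Myh6) summed to 48860 to 51940 CPM in young and 50590 to 51580 CPM in old hearts, and none was at 0. Of these 8, 1 rose (Tnni3) and 1 fell (Ttn). The 8 endothelial markers summed to 2173 to 2414 CPM in young and 1671 to 2236 in old hearts (0 rose and 2 fell, or 4 without old 3), the 8 fibroblast markers to 1607 to 1664 and 1608 to 1981 CPM (1 rose and 1 fell, or 0 and 2 without old 3), the 8 smooth muscle and pericyte markers to 1203 to 1363 and 1268 to 1401 CPM (3 rose and 2 fell, or 1 and 2 without old 3) and the 8 macrophage markers to 426 to 451 and 442 to 516 CPM (3 rose, 0 fell). The red blood cell markers ranged widely inside the young group, from 2163 to 16090 CPM, against 3195 to 6803 CPM in old hearts (1 of 7 fell). The 6 epicardial markers summed to 9.4 to 50.2 and 30.9 to 54.2 CPM (1 rose) and the 6 neutrophil markers to 9.44 to 18.2 and 8.99 to 10.6 CPM (0 of 3 tested called), with Ly6g at 0 in at least 1 library. The part of these cells in the phosphatase values was not tested.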

How the data were processed

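The authors deposited counts as whole numbers for each gene symbol in each library. FPKM values, also by the authors, rest on these counts, since dividing the pair gave a single length in all libraries for each of the 16964 genes with counts (relative tolerance 1e-05). The submitters' processing notes name Trimmomatic, HISAT2, Bowtie2, HTSeq, Cufflinks, StringTie, DESeq and the GRCm39 build, with no roles, and the strand setting is not given in the sources used here. Per the labels' protocols, RNA was taken with a mirVana kit and libraries with a TruSeq Stranded mRNA kit. The 12 per-sample files equal their columns in the tables of all samples.

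Old and young counts were compared in R 4.3.3 with edgeR 4.0.16 (filterByExpr, TMM, quasi-likelihood F test, all 6 libraries, no covariate), with Benjamini-Hochberg adjustment over 12893 genes. SEs are the log2 fold change over the square root of F. Depth was 11295280 to 12514005 counts per library, and replicates differed by more than sampling noise (chi-square per degree of freedom 7.9 to 16.7).

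As alternatives, scaling was by RLE, by upper quartiles or by library size, with 2 other filters, DESeq2 1.42.0, limma 3.58.1 (voom, and log2 FPKM with pseudocounts of 1 and 0.1), a replicate block, a stricter threshold and each library left out. The members and gene lists were chosen with earlier results of these data known. Named by rule outside the members are up to 3 called genes of smallest p per list and the 5 genes most like each called member. Mt2, Zbtb16, the other immediate early genes and some cell type markers are named outside that rule. Promoters were matched by symbol to RefSeq (GRCm38.p6), 9 of 10 members having an entry.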

Additional observations from a re-analysis of the deposited data

How the results depend on the processing

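No tested member changed direction under any alternative run. Dusp16 and Dusp8 were called under every one, and Dusp4 under every one but the fit without young 1 and the threshold of 0.01. The number of members called was 2 to 5 with a library left out, 5 being reached without old 1 (Dusp1 and Dusp5 added), and 3 to 4 with other scalings, filters and tools, where Dusp1 was added with no filter on low counts (adjusted p = 0.041). Under the threshold of 0.01 it was 2. The number of all genes called was 1552 to 3041 with a library left out (1557 without young 1, 1552 without young 3) and 1255 at the threshold of 0.01. Among pathway and context genes, 58 were called and 43 to 64 with a library left out. The mouse number as a replicate block gave 5 called members, adding Dusp1 (log2 fold change 0.97, adjusted p = 0.0147) and Dusp5 (0.67, adjusted p = 0.0135), and 2734 genes. The deviations of same-numbered mice had r of 0.0782, 0.0782 and 0.00675, against -0.141 to 0.0644 between mice of unlike number. With 3 mice per group these values cannot decide whether the numbers pair the animals. The main fit treated them as unpaired, and the calls of Dusp1 and Dusp5 depend on that choice. Scaling moved the split of calls: of the genes called, 51.7% were higher in old hearts after TMM, but 40.2% under upper-quartile factors, 32.7% when only library size was used and 35.1% on FPKM values. Of 516 results for genes named by rule outside the members, 35 lost and 2 gained a call and 0 reversed. Depth limits Dusp2 and Dusp14, with 2 to 22 counts per library.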
